A study of Mus musculus with 10 samples.

Results

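The insulin-like growth factor (IGF) system of irradiated mouse embryonic fibroblasts (MEFs) was described through 10 genes. They are the ligands Igf1 and Igf2, the receptor Igf1r and the binding proteins Igfbp1 to Igfbp7, out of 19938 genes that had an array probeset of their own. Each gene was read by its probeset with a single gene symbol and the highest mean over the 10 arrays. All 10 genes were measured, and each had exactly 1 such probeset, so no choice between probesets was needed.

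The study asked whether fibroblasts that support leukemia cells respond when those cells are treated with a drug. Wild-type MEFs were mitotically inactivated by irradiation and kept until day 9 in one of 4 ways: with the solvent DMSO (MEFs + DMSO), with 16 nM nilotinib, an inhibitor of the Abl kinase (MEFs + nilotinib), or below acute lymphoblastic leukemia (ALL) cells that received nilotinib (MEFs + ALL + nilotinib) or DMSO (MEFs + ALL + DMSO). The ALL cells are mouse B-lineage precursors from a Bcr/Abl transgenic animal, and the pores of a Transwell membrane separated them from the MEFs. There were 3 arrays, each of a separate dish, for each group except MEFs + ALL + DMSO, for which 1 array remained because the authors discarded the other dishes as contaminated by ALL cells.

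The ligands Igf1 and Igf2 are small secreted proteins related to insulin, and both activate the receptor tyrosine kinase Igf1r, which signals growth and survival through the adaptor proteins of the IRS family and PI3 kinase. The binding proteins hold the ligands in the extracellular fluid, keep them from the receptor or store them near the cell, and proteases release the ligands again by cutting the binding proteins. Fibroblasts are a known source of IGF ligands and of several binding proteins in connective tissue.

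Values are log2 RMA signals, that is, background-corrected and normalized probeset brightness, in which a difference of 1 is a doubling. A gene was called changed when its limma adjusted p, taken over all 35557 probesets, was under 0.05. The p-values measure the spread between dishes. Array medians ran from 6.94 to 7.01, all 10 fibroblast markers were above the range of silent genes in each group, and the lone MEFs + ALL + DMSO array and replicate 2 of MEFs + ALL + nilotinib stood apart from the rest on the first and second principal component. In the lone array 9 of 11 measured B-lineage precursor markers and 8 of 8 leukocyte markers were higher than in MEFs + DMSO, by a median log2 difference of 2.49 and 1.02. The mean level of the B-lineage markers was 8.28 there against 5.86 to 6.13 in the other arrays, and none of the 11 was called in MEFs + ALL + nilotinib. Macrophage markers (8 of 9 measured) were above the range of silent genes in each group and none was called in any comparison.

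The signal of a probeset depends on its probes as well as on the RNA, so levels are compared here between arrays and not between genes. A guide to background came from 1194 genes of odorant and pheromone receptors, which fibroblasts do not use, and 95% of them had a mean under 6.29. Igfbp1 lay under that value with a mean of 6.03 over the 10 arrays and is called dim here, and the other 9 genes had means from 9.18 (Igfbp5) to 12.77 (Igfbp2). The largest spread over the 10 arrays was 0.83 for Igfbp4, the smallest 0.24 for Igfbp2.

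**Figure D1:**
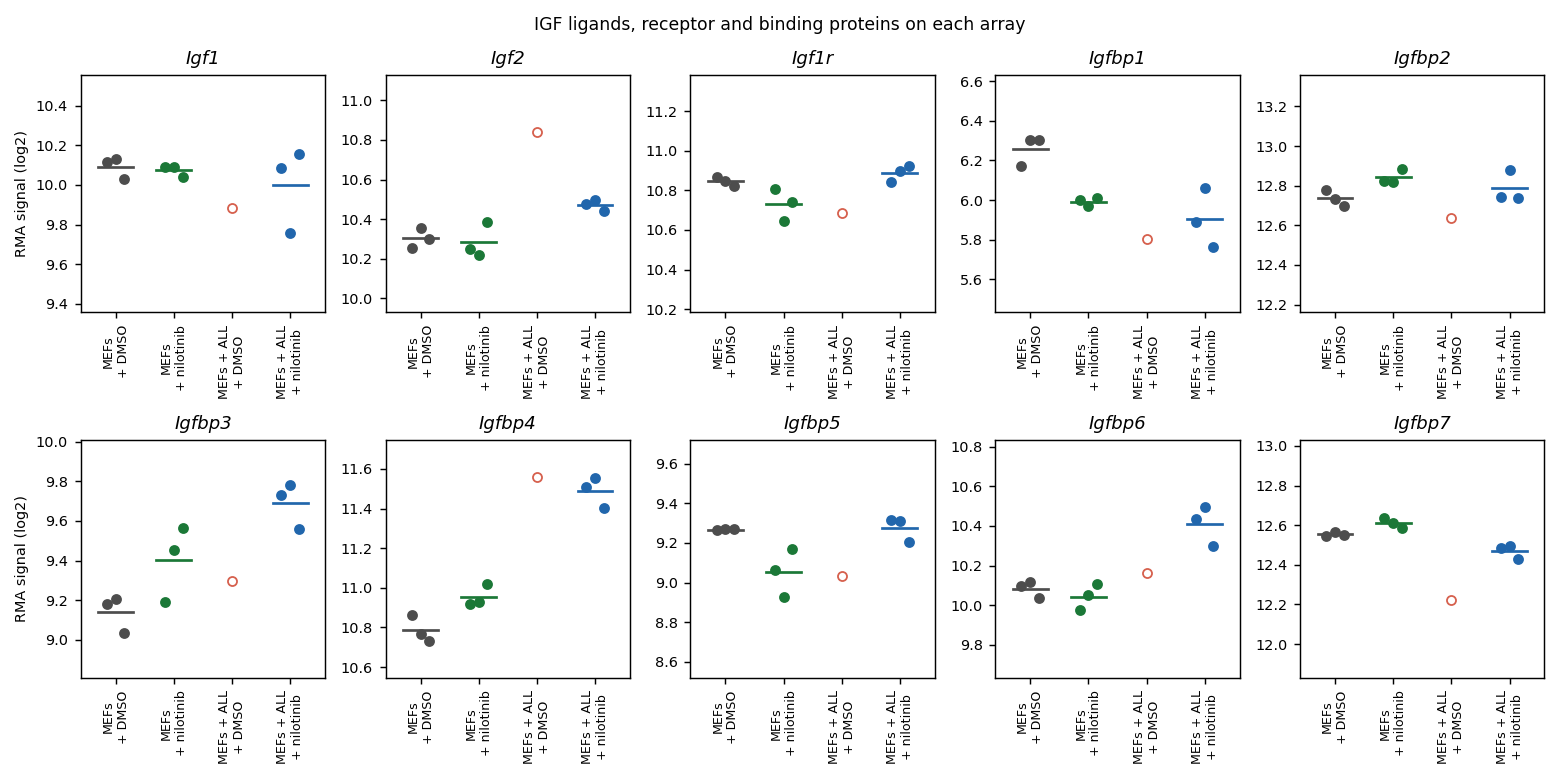
The log2 RMA signal of each IGF gene on each of the 10 arrays, with 1 panel per gene and every panel spanning the same 1.2 log2 units. Filled points are replicate dishes, lines are group means and the open point is the lone MEFs + ALL + DMSO array. Igfbp4 sits at 11.41 or above in all arrays with ALL cells and at 11.02 or below in all others.

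The start regions of 2 binding protein genes are shown because Igfbp4 is the gene whose level changed in the replicated comparisons, and Igfbp1 is the classical target of insulin-like signals. Each line gives the 250 bases before the RefSeq transcript start on the coding strand, build GRCm38.p6, with Igfbp4 at chr11:99040994-99041243 and Igfbp1 at chr11:7197537-7197786, both on the plus strand. Capitals mark TATAAA in Igfbp4 and CAAAACA in Igfbp1.

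Igfbp4: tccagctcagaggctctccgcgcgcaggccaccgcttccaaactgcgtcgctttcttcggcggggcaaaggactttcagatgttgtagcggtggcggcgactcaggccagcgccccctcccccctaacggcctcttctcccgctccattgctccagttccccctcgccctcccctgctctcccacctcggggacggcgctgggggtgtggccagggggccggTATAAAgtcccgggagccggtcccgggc
Igfbp1: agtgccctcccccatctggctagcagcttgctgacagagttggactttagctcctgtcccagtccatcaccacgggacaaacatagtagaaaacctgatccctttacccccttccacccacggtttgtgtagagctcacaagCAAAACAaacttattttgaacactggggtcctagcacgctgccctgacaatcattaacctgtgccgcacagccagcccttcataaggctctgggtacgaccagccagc

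The TATAAA of Igfbp4 lies 28 to 23 bases before the start, on the coding strand. Both strands of the 14 start regions of the 10 genes (4 of Igf2, 2 of Igfbp2 and 1 of each other gene) were searched for 4 short motifs. TATAAA was held by those of Igfbp4 and Igfbp6, against 12.4% of all 32851 start regions of that length. In Igfbp6 it lies on the opposite strand, 148 to 143 bases before the start. CAAAACA, the core of the insulin response element through which FOXO factors act, was held by Igfbp1 only, 108 to 102 bases before its start, against 5.56% of all start regions. GGGCGG, the GC box, was in regions of Igf2, Igf1r, Igfbp2 and Igfbp7, against 32.7% of all, and ACGTG, the hypoxia response core, in Igf2, Igfbp2 and Igfbp7, against 16.6%. These are matches of letters and say nothing of a factor's binding. By RefSeq gene order Igfbp1 and Igfbp3 are direct neighbours with 0 genes between them, as are Igfbp2 and Igfbp5.

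Igfbp4 encodes a binding protein that mostly restrains IGF action until the protease PAPP-A cuts it. Its log2 signal was 10.86, 10.77 and 10.73 in MEFs + DMSO, 10.92, 10.93 and 11.02 in MEFs + nilotinib, 11.51, 11.55 and 11.41 in MEFs + ALL + nilotinib, and 11.56 in MEFs + ALL + DMSO. The arrays with ALL cells were all above those without them, and the ranges of the replicated groups did not overlap. The lone array, at 11.5602, was barely above the highest MEFs + ALL + nilotinib array, at 11.5542. Igfbp4 rose in MEFs + ALL + nilotinib over MEFs + DMSO by 0.70 (SE 0.07, n = 3 and 3, limma adjusted p = 0.0106), a fold of 1.63 with a 95% confidence interval of 1.46 to 1.81. It also rose over MEFs + nilotinib, by 0.53 (SE 0.07, n = 3 and 3, limma adjusted p = 0.0360), a fold of 1.45. In RNA of a whole culture, more cells of a type and more RNA per cell cannot be told apart.

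The call over MEFs + DMSO was lost without replicate 1 of MEFs + ALL + nilotinib (limma adjusted p = 0.0584) or without replicate 2 or 3 of MEFs + DMSO (0.0804 and 0.0715), while the difference stayed between 0.67 and 0.75. The call over MEFs + nilotinib was lost in each of the 9 fits that left out 1 array (limma adjusted p 0.0719 to 0.128), with differences of 0.50 to 0.58. Beside the rise in MEFs + ALL + nilotinib over MEFs + DMSO, 0 of 11 B-lineage and 0 of 8 leukocyte markers were called. Thy1 was the 1 of 10 fibroblast markers called, higher by 0.61, while the median of that list was -0.04. Des, a muscle and myofibroblast filament gene, was the 1 of 6 skeletal muscle markers called, higher by 0.90, beside a list median of 0.03. Over MEFs + nilotinib, 0 of the 10 and 0 of the 6 were called, with list medians of 0.11 and 0.04. Des still differed there by 0.57, with means of 9.68 in MEFs + nilotinib and 10.25 in MEFs + ALL + nilotinib. The means of Thy1 were 11.89 and 12.21. The part of Thy1-positive or Des-positive cells in the Igfbp4 values was not tested.

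Igfbp4 was the single IGF gene called in MEFs + ALL + nilotinib over MEFs + DMSO, so 1 of 10 passed, against 0.627% of all probesets (0.503% higher). At an unadjusted p under 0.05 there were 5 of 10, against 16.2% of all probesets. The arrays of both groups did not overlap for 6 of the 10 genes, against 24.7% of all probesets. Igf2, Igfbp3, Igfbp4 and Igfbp6 were above their controls in every array, and Igfbp1 and Igfbp7 below. The median difference of the 10 genes was 0.05 on the log2 scale, against -0.00 for all probesets.

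Igfbp3 encodes the main carrier of IGFs in serum and is made by many fibroblasts. Its log2 signal was 9.18, 9.21 and 9.04 in MEFs + DMSO, 9.19, 9.45 and 9.56 in MEFs + nilotinib, 9.73, 9.78 and 9.56 in MEFs + ALL + nilotinib, and 9.30 in MEFs + ALL + DMSO. The MEFs + nilotinib arrays spread over the gap between MEFs + DMSO and MEFs + ALL + nilotinib and touched both groups. The difference of MEFs + ALL + nilotinib over MEFs + DMSO was 0.55 (SE 0.11) and missed the threshold (limma adjusted p = 0.0757). Over MEFs + nilotinib it was 0.29 (SE 0.11, limma adjusted p = 0.462).

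Igfbp6 encodes a binding protein that prefers Igf2 to Igf1. Its log2 signal was 10.10, 10.12 and 10.04 in MEFs + DMSO, 9.97, 10.05 and 10.11 in MEFs + nilotinib, 10.44, 10.50 and 10.30 in MEFs + ALL + nilotinib, and 10.16 in MEFs + ALL + DMSO. The 3 arrays of MEFs + ALL + nilotinib were the highest, and the lone array was nearer to the cultures without ALL cells. Differences of MEFs + ALL + nilotinib were 0.33 over MEFs + DMSO and 0.37 over MEFs + nilotinib, both with SE 0.07, and neither passed (limma adjusted p = 0.0929 and 0.130).

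Among the other binding proteins, Igfbp2, which can also bind integrins, was at 12.78, 12.73 and 12.70 in MEFs + DMSO, 12.83, 12.82 and 12.88 in MEFs + nilotinib, 12.74, 12.88 and 12.74 in MEFs + ALL + nilotinib, and 12.64 in MEFs + ALL + DMSO. The lone array was the lowest, and the 6 differences lay between -0.10 and 0.15. Igfbp5, a binding protein that attaches to matrix, was at 9.26, 9.27 and 9.27 in MEFs + DMSO and at 9.06, 8.93 and 9.17 in MEFs + nilotinib. It was back at 9.31, 9.31 and 9.20 in MEFs + ALL + nilotinib and at 9.03 in the lone array. The MEFs + nilotinib arrays were below both other replicated groups, and the differences of -0.21 from MEFs + DMSO and 0.22 to MEFs + ALL + nilotinib did not pass (limma adjusted p = 0.388 and 0.394).

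Igfbp1, the binding protein that insulin holds down in liver, was dim in this culture. Its log2 signal was 6.17, 6.30 and 6.30 in MEFs + DMSO, from 5.97 to 6.01 in the 3 MEFs + nilotinib arrays, 5.89, 6.06 and 5.76 in MEFs + ALL + nilotinib, and 5.80 in MEFs + ALL + DMSO. The MEFs + DMSO arrays were the highest, and MEFs + ALL + nilotinib overlapped both MEFs + nilotinib and the lone array, which did not overlap each other. MEFs + ALL + nilotinib differed from MEFs + DMSO by -0.35 (SE 0.08, limma adjusted p = 0.111), so this neighbour of Igfbp3 had the opposite sign, and the difference lies in the range of silent genes.

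Igfbp7 binds IGFs with lower affinity than the others and is found in vessel walls and stroma. Its log2 signal was 12.55, 12.56 and 12.55 in MEFs + DMSO, 12.64, 12.61 and 12.59 in MEFs + nilotinib, 12.48, 12.49 and 12.43 in MEFs + ALL + nilotinib, and 12.22 in MEFs + ALL + DMSO. The ranges of the 4 groups did not overlap, yet the steps between replicated groups were small, -0.09 over MEFs + DMSO and -0.14 over MEFs + nilotinib (limma adjusted p = 0.466 and 0.448).

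Of the ligands, Igf2 was at 10.26, 10.35 and 10.30 in MEFs + DMSO, 10.25, 10.22 and 10.39 in MEFs + nilotinib, 10.48, 10.50 and 10.44 in MEFs + ALL + nilotinib, and 10.84 in MEFs + ALL + DMSO. The arrays with ALL cells were all above those without, by 0.17 for MEFs + ALL + nilotinib over MEFs + DMSO (SE 0.07, limma adjusted p = 0.259). Igf1 was at 10.03 to 10.13 in MEFs + DMSO and 10.04 to 10.09 in MEFs + nilotinib. In MEFs + ALL + nilotinib it was at 10.09, 9.76 and 10.16, so replicate 2, the array that stood apart, set the mean difference of -0.09 from MEFs + DMSO, which was 0.03 without it. The lone array had 9.88, below all arrays but that one.

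The receptor gene Igf1r was at 10.87, 10.85 and 10.82 in MEFs + DMSO, 10.81, 10.64 and 10.74 in MEFs + nilotinib, 10.84, 10.90 and 10.92 in MEFs + ALL + nilotinib, and 10.68 in MEFs + ALL + DMSO. MEFs + nilotinib and the lone array were the low ones, and MEFs + DMSO overlapped MEFs + ALL + nilotinib. Differences of MEFs + ALL + nilotinib were 0.04 over MEFs + DMSO and 0.16 over MEFs + nilotinib (limma adjusted p = 0.780 and 0.491).

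**Figure D2:**
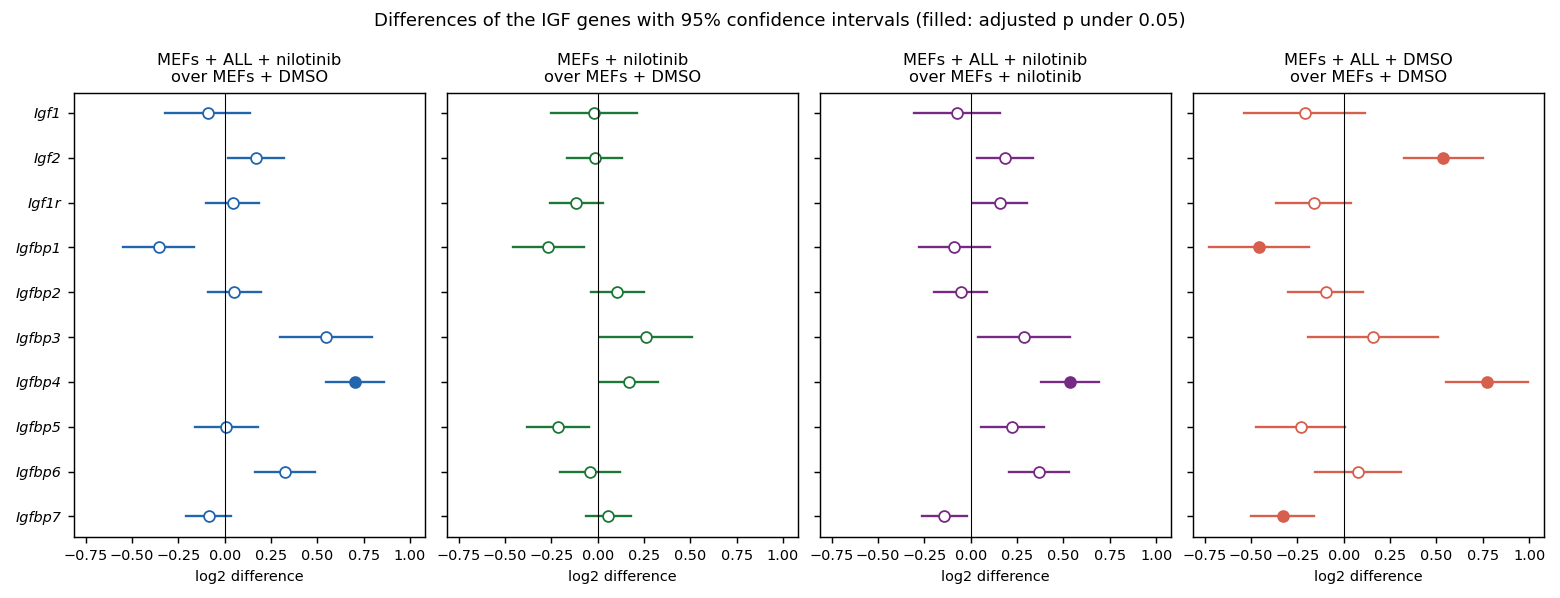
The log2 difference of each IGF gene (points) with its 95% confidence interval (lines) in 4 comparisons, from limma over all arrays. Filled points have an adjusted p under 0.05: Igfbp4 in the 3 comparisons that add ALL cells, and Igf2, Igfbp1 and Igfbp7 in the comparison that rests on the lone array.

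Nilotinib alone was the control for the drug. In MEFs + nilotinib over MEFs + DMSO, limma called 0 of the 10 genes and 0% of all probesets, and 4 of the 10 genes had an unadjusted p under 0.05, against 11.2% of all probesets. The arrays did not overlap for 6 of the 10, against 20.6% of all probesets. Igfbp2, Igfbp4 and Igfbp7 were higher in MEFs + nilotinib in every array, and Igf1r, Igfbp1 and Igfbp5 lower. The largest differences were -0.27 for Igfbp1 and 0.26 for Igfbp3 (limma adjusted p = 0.369 and 0.428), and that of Igfbp4 was 0.17, with a 95% confidence interval of 0.01 to 0.32.

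With the drug held the same, MEFs + ALL + nilotinib over MEFs + nilotinib gives the difference that goes with the ALL cells. Igfbp4 was again the 1 gene of 10 called, against 0.186% of all probesets, and 7 of 10 had an unadjusted p under 0.05, against 9.27% of all probesets. The arrays did not overlap for 6 of 10 genes, against 14.4% of all probesets: Igf2, Igf1r, Igfbp4, Igfbp5 and Igfbp6 were higher and Igfbp7 was lower. The median difference was 0.17, against -0.01 for all probesets. This comparison shares its MEFs + ALL + nilotinib arrays with the one over MEFs + DMSO.

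The comparison of MEFs + ALL + DMSO with MEFs + DMSO rests on the lone array, whose error is borrowed from the spread of the replicated groups. In it 4 of the 10 genes were called, 2 higher and 2 lower, against 10.3% of all probesets (6.67% higher and 3.59% lower). Igfbp4 rose by 0.77 (SE 0.10, n = 1 and 3, limma adjusted p = 0.00150) and Igf2 by 0.54 (SE 0.09, n = 1 and 3, limma adjusted p = 0.00871), folds of 1.71 and 1.45. Igfbp1 fell by 0.46 (limma adjusted p = 0.0458) and Igfbp7 fell by 0.33 (limma adjusted p = 0.0284). For the 6 genes not called, the differences were -0.21 for Igf1, -0.16 for Igf1r, -0.10 for Igfbp2, 0.16 for Igfbp3, -0.23 for Igfbp5 and 0.08 for Igfbp6. The calls of Igfbp4 and Igf2 were kept in 15 of 15 alternative fits, that of Igfbp7 in 12 and that of the dim Igfbp1 in 5. Each of these fits uses the same lone array, so they cannot show how another such dish would differ.

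All of these values come from the array in which 9 of 11 B-lineage markers and 8 of 8 leukocyte markers were higher, and the part of ALL cell RNA in them was not tested. For Igfbp4 the arrays of MEFs + ALL + nilotinib differed from the lone array by -0.07 (SE 0.10, 95% confidence interval of the difference -0.29 to 0.15). For Igf2 they were lower by 0.37 (SE 0.09), which did not pass the test (limma adjusted p = 0.0713).

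Between drug-treated and solvent-treated ALL cells, MEFs + ALL + nilotinib over MEFs + ALL + DMSO, 0 of 10 genes were called by limma against 4.34% of all probesets, and 6 of 10 had an unadjusted p under 0.05, against 17.7% of all probesets. Apart from Igf2 and Igfbp4 the differences were all positive, from 0.10 for Igfbp1 to 0.39 for Igfbp3, beside a median of 0.07 for all probesets. Igfbp6 and Igfbp7 differed by 0.25 and 0.24 (limma adjusted p = 0.248 and 0.135). The interaction, which tests whether the difference that goes with ALL cells was another under nilotinib than under DMSO, called 0 of 10 genes against 3.95% of all probesets, and 5 of 10 had an unadjusted p under 0.05, against 19.5% of all probesets. Its largest values were 0.46 for Igfbp5 and 0.37 for Igfbp1 (limma adjusted p = 0.106 and 0.214), and for Igfbp4 it was -0.24 (limma adjusted p = 0.305). Both comparisons rest on the lone array. In each of them 9 of 11 B-lineage and 5 of 8 leukocyte markers were called lower. The median log2 difference of the B-lineage markers was -2.45 in the first and -2.47 in the interaction. The part of ALL cell RNA in these values was not tested.

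Other genes of the pathway were read from 5 lists, in which 57 genes had a probeset of their own. In MEFs + ALL + nilotinib over MEFs + DMSO, 2 of the 57 were called, both higher and both on the list of proteases that cut binding proteins and their partners, where 2 of 14 passed, against 0.627% of all probesets (0.503% higher). In MEFs + nilotinib over MEFs + DMSO limma called 0 of 57, and the 6 at an unadjusted p under 0.05 were near the share of all probesets, 11.2%. In MEFs + ALL + nilotinib over MEFs + nilotinib it called 1 of 57, against 0.186% of all probesets. An unadjusted p under 0.05 was found there for 17 of 57, against 9.27% of all probesets. For MEFs + ALL + nilotinib over MEFs + DMSO that count was 18 of 57, against 16.2%.

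Plau encodes urokinase, which turns plasminogen into plasmin, a protease that can cut several binding proteins. Its log2 signal was 9.24, 9.25 and 9.15 in MEFs + DMSO, 9.26, 9.33 and 9.24 in MEFs + nilotinib, 9.77, 9.85 and 9.74 in MEFs + ALL + nilotinib, and 9.51 in MEFs + ALL + DMSO. The arrays with ALL cells were above all others. Plau rose by 0.57 over MEFs + DMSO and by 0.51 over MEFs + nilotinib, both with SE 0.06 (limma adjusted p = 0.0136 and 0.0305). The call over MEFs + DMSO was kept in 4 of 9 fits that left out 1 array and that over MEFs + nilotinib in 0 of 9.

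Pappa2, a relative of PAPP-A that cuts Igfbp3 and Igfbp5, was at 7.75, 7.84 and 7.76 in MEFs + DMSO, 7.88, 7.87 and 7.80 in MEFs + nilotinib, 8.17, 8.25 and 8.25 in MEFs + ALL + nilotinib, and 8.08 in the lone array. It rose over MEFs + DMSO by 0.44 (SE 0.06, limma adjusted p = 0.0275), a call kept in 1 of 9 fits that left out 1 array. Its other probesets gave 0.31 and 0.48 (limma adjusted p = 0.0895 and 0.0589). Pappa, the gene of the protease that cuts Igfbp4, differed by 0.05 (limma adjusted p = 0.715). Stc1, whose protein can inhibit PAPP-A, was higher by 0.59 and narrowly missed the threshold (limma adjusted p = 0.0504).

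Among receptors and adaptors 0 of 18 genes were called by limma in MEFs + ALL + nilotinib over MEFs + DMSO, and 3 had an unadjusted p under 0.05, against 16.2% of all probesets. The largest differences were -0.58 for Pik3cb, a catalytic subunit of PI3 kinase, -0.36 for Sos1 and -0.18 for Gab1, which link receptors to Ras and PI3 kinase (limma adjusted p = 0.0774, 0.191 and 0.240). In the 10 genes with a domain like that of the binding proteins 0 were called and 5 had an unadjusted p under 0.05, with 0.44 for Ccn3, 0.36 for Kazald1 and -0.32 for Igfbpl1 (limma adjusted p = 0.0592, 0.105 and 0.148). Igfbpl1 was near the range of silent genes, with means of 6.52 in MEFs + DMSO and 6.20 in MEFs + ALL + nilotinib. In the FOXO list, whose genes insulin-like signals hold down, 0 of 13 were called, 3 had an unadjusted p under 0.05, and differences ran from -0.20 (Foxo4) to 0.25 (Bcl6), with -0.17 for Foxo1. Igf2bp1 and Igf2bp3, which bind Igf2 RNA, differed by 0.22 and 0.06 and were not called.

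The lone array again called more. In MEFs + ALL + DMSO over MEFs + DMSO, 10 of the 57 genes passed, 3 higher and 7 lower, against 10.3% of all probesets (6.67% higher and 3.59% lower). The same array had 9 of 11 B-lineage and 8 of 8 leukocyte markers raised, and their part in these values was not tested. Those lower were Igf2r, which removes Igf2 from the cell surface (-0.44), Irs4 (-0.47), Pik3cb (-0.89), Plg (-0.52), Mmp2 (-0.36), Crim1 (-0.34) and Ccn4 (-0.61). Those higher were Stc1 (0.60), Igf2bp3 (0.48) and Ccn3 (0.54). Irs4 and Plg had all arrays under 6.29, in the range of silent genes. Stc1 was near that range in MEFs + DMSO, with a mean of 6.41, and at 7.01 in the lone array. Irs4 was also the 1 gene of 57 called between MEFs + ALL + nilotinib and MEFs + ALL + DMSO (0.49, limma adjusted p = 0.0122), against 4.34% of all probesets. The interaction called 0 of 57 by limma against 3.95% of all probesets, and 12 of 57 had an unadjusted p under 0.05, against 19.5%.

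**Figure D3:**
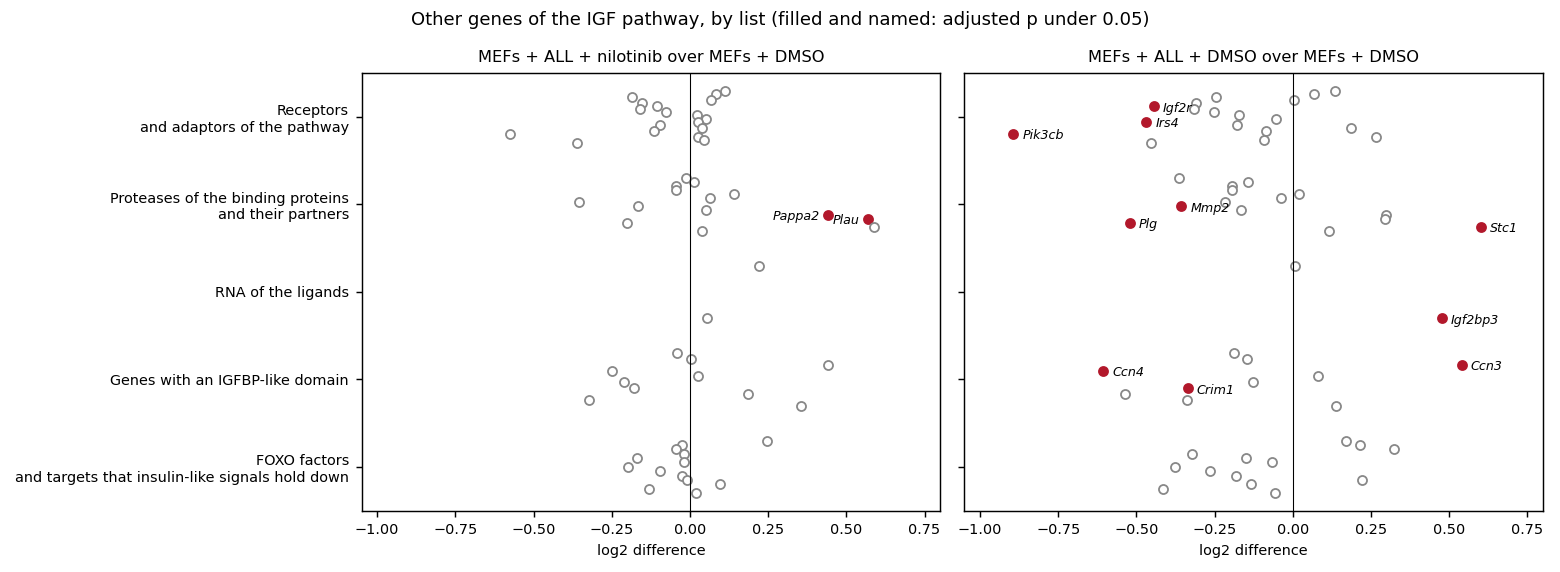
Log2 differences of the 57 measured pathway genes outside the 10, 1 point per gene, by list, in MEFs + ALL + nilotinib over MEFs + DMSO (left) and in the lone MEFs + ALL + DMSO array over MEFs + DMSO (right). Filled, named points have an adjusted p under 0.05; 2 genes passed on the left, both among the proteases and partners, and 10 on the right.

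The pattern of Igfbp4 over the 10 arrays was closest to those of Aqp1, a water channel, Ptger4, a prostaglandin E2 receptor, Cpxm2, a secreted carboxypeptidase-like protein, and Lrrc32, which holds latent TGF-beta at the cell surface. Likeness was the root mean square distance between the log2 signals, each gene centred on its own mean, and it was 0.07 to 0.08 for these 4 against a median of 0.33 over 9960 candidate genes. For Igfbp3 the closest were Foxs1, Fam149a, Nkd2 and Rps4l, at 0.08 to 0.10 against a median of 0.26. All 8 were chosen for this likeness, so their own differences are a description: in MEFs + ALL + nilotinib over MEFs + DMSO those of the first 4 ran from 0.64 to 0.76 and those of the other 4 from 0.41 to 0.50.

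**Figure D4:**
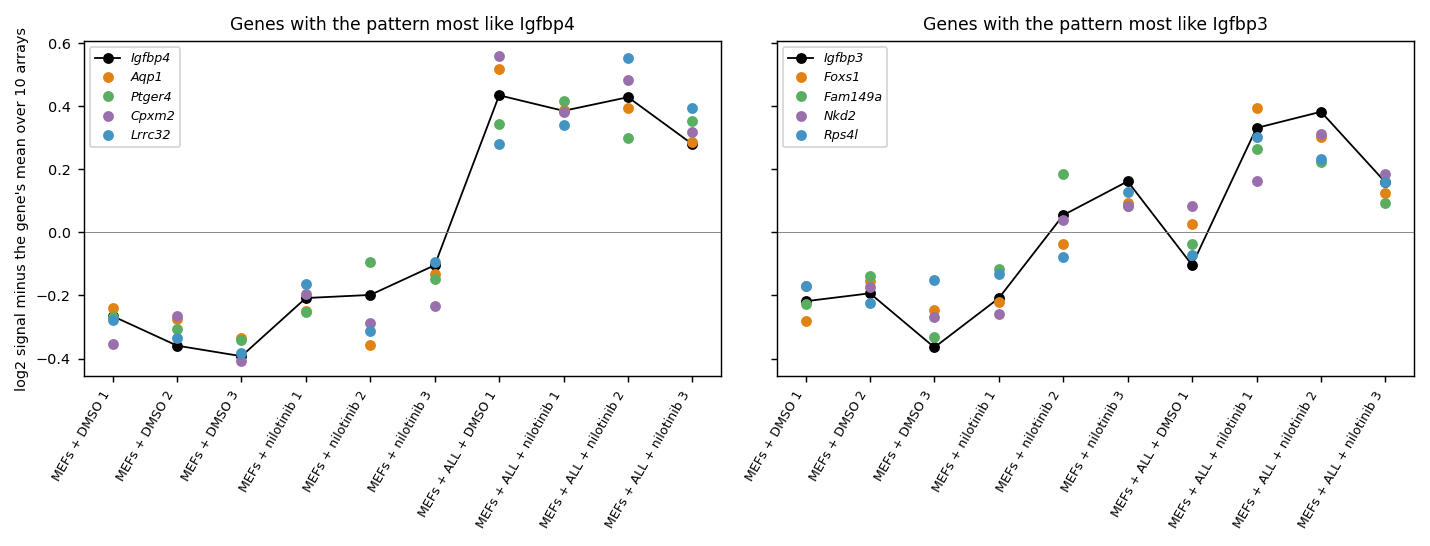
Log2 signal of Igfbp4 (left) and Igfbp3 (right) and of the 4 genes most like each, minus each gene's mean over the 10 arrays, for every array. Igfbp4 and its 4 nearest genes step up between the arrays without and with ALL cells, while Igfbp3 and its nearest genes spread over the MEFs + nilotinib arrays and are near their means in the lone MEFs + ALL + DMSO array.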

How the data were processed

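RNA of irradiated MEFs was measured on 10 Affymetrix mouse gene arrays, 1 per dish. The authors deposited log2 RMA signals made in Partek, as named in the submitters' processing notes (version and genome build not given in the sources used here). Precision is limited by how few arrays there are.

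Of 35557 probesets, 21789 pair with 1 gene symbol in the array's annotation, 1621 with several and 12147 with none. Among RefSeq genes 21698 were found, 0 symbols were updated, and 19938 genes had a probeset. Columns of per-sample values left unused numbered 0.

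Comparisons were made with limma 3.58.1 in R 4.3.3 (lmFit and eBayes on all probesets and 10 arrays, 4 group means, shared spread, Benjamini-Hochberg over all probesets, threshold 0.05), checked on simulated data. The methods name no test. Folds are 2 to the power of the log2 difference. Promoter sequences come from RefSeq, build GRCm38.p6 (Python 3.11.15). Figures were drawn with matplotlib 3.10.9.

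The IGF genes, the 5 pathway lists and the marker lists were chosen with earlier results of these data known. Named were the 10 IGF genes, each pathway gene called in any of 6 comparisons or among the 3 largest differences of its list in MEFs + ALL + nilotinib over MEFs + DMSO, and the 4 genes most like each of the 2 IGF genes with the widest group means. Pappa was added after its values were seen. Marker lists of endothelium (5 of 6 genes in the range of silent genes in each group), adipocytes (0 of 5 called in MEFs + ALL + nilotinib over MEFs + DMSO) and skeletal muscle (1 of 6, Des) were also read.

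Alternatives were moderation with trend and robust, array weights, quantile normalization, median centring, a filter on dim probesets, 1 probeset per gene, the replicate number as a block, the compared groups alone, leaving out each array, and, chosen after seeing the data, leaving out the lone array. Pairing of the dishes by replicate number was not seen: deviations of same-numbered arrays correlated by -0.293 to 0.241 over 9 pairs. So few arrays cannot exclude a pairing. Some genes of the lists are not reported here.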

Additional observations from a re-analysis of the deposited data

How the results depend on the processing

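Of the IGF genes, MEFs + ALL + nilotinib over MEFs + DMSO had 1 called, but 3 with trend and robust moderation, 4 with array weights, 2 without the dimmest 25% of probesets, 4 with 1 probeset per gene, 0 with the compared groups alone (limma adjusted p of Igfbp4 0.06655) and 0 to 2 when 1 array was left out. Over MEFs + nilotinib the count was 1, but 2 with 1 probeset per gene, 0 with the compared groups alone (Igfbp4 0.1949) and 0 when any array was left out. MEFs + ALL + DMSO over MEFs + DMSO had 4, and 2 to 4 when 1 array was left out. MEFs + ALL + nilotinib over MEFs + ALL + DMSO had 0, but 2 with trend and robust moderation and 1 each with array weights, without the dimmest 25% and with 1 probeset per gene. Igfbp4 was called over MEFs + DMSO in 13 of 18 alternatives (limma adjusted p 0.00185 to 0.0804) and over MEFs + nilotinib in 7 of 18. Leaving out the lone array is 1 of the 18 and changed neither p-value, since 1 array adds nothing to the spread. Its calls in both tallies were thus fixed in advance. The share of all probesets called under each alternative is not given here, so these counts cannot show a change particular to the IGF genes. For each of these results the cause was not tested.

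With the replicate number as a block on 9 arrays, 0 IGF genes and 0 pathway genes were called over MEFs + DMSO and over MEFs + nilotinib (limma adjusted p of Igfbp4 0.0723 and 0.187), while the pairing was not borne out by the deviations: same-numbered arrays correlated by -0.293 to 0.241, arrays of different number by -0.259 to 0.389.

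Of the pathway genes, 2 were called over MEFs + DMSO, but 5 with trend and robust moderation, 7 with array weights, 4 with quantile normalization, 5 without the dimmest 25%, 6 with 1 probeset per gene, 0 with the compared groups alone and 0 to 2 when 1 array was left out. Over MEFs + nilotinib these counts were 1, but 2, 3, 2 and 4 with trend and robust moderation, array weights, the dimmest 25% removed and 1 probeset per gene, 0 with the compared groups alone and 0 when any array was left out. MEFs + ALL + DMSO over MEFs + DMSO gave 10, but 19 with array weights, 17 with 1 probeset per gene and 5 to 16 when 1 array was left out. MEFs + ALL + nilotinib over MEFs + ALL + DMSO gave 1, but 3 with trend and robust moderation, 4 with array weights, 2 with quantile normalization, 3 without the dimmest 25%, 4 with 1 probeset per gene and 1 to 2 when 1 array was left out. The interaction gave 0, but 1, 3, 1 and 1 with trend and robust moderation, array weights, quantile normalization and 1 probeset per gene. It gave 0 to 1 when 1 array was left out. Here too the share of all probesets under each alternative is not given, so the counts cannot show a change particular to these genes.

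Signs turned for uncalled differences near 0: Igfbp5 over MEFs + DMSO was -0.0139 with array weights, -0.0311 with quantile normalization and -0.0107 to 0.0448 when 1 array was left out; Igf1 over MEFs + nilotinib was 0.0285 with array weights and -0.150 to 0.0480 when 1 array was left out. Igf1 over MEFs + DMSO ran from -0.170 to 0.0287 when 1 array was left out. In MEFs + nilotinib over MEFs + DMSO, median centring gave 0.000227 for Igf1 and 0.00309 for Igf2, and leaving out 1 array gave -0.0499 to 0.000733 and -0.0672 to 0.0170. Igfbp4 in MEFs + ALL + nilotinib over MEFs + ALL + DMSO was 0.00515 with quantile normalization. The interaction of Igfbp2 ran from -0.00208 to 0.0667 when 1 array was left out. Igfbp1 in the lone array lost its call with trend and robust moderation (limma adjusted p = 0.0603), quantile normalization (0.0954) and median centring (0.0546). No other probeset with the single symbol of an IGF gene was there to try. Quantile normalization moved the median of all probesets by at most 0.00985.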
